A study of Homo sapiens with 3 samples.

Results

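The genes described here are 34 members of the sterol and fatty acid synthesis programme that sterol regulatory element-binding proteins (SREBPs) drive. They were chosen by symbol, and all 34 symbols were found among the 23131 genes of the deposited expression table, 2 of them under the older names *SC5DL* (now *SC5D*) and *SC4MOL* (now *MSMO1*). The sterol arm has 19 members, the fatty acid arm 8, and 7 act in SREBP regulation and sterol transport. HCT-116 is a colon carcinoma line whose source label reads *APC* wild-type and CTNNB1ΔSer45, a β-catenin that lacks a serine needed for its degradation. The series holds 3 libraries, 1 each from cells given pooled anti-*APC* siRNA, pooled scrambled siRNA, or reagent without siRNA, a control titled untransfected and described as mock transfected. Transfections were made on consecutive days and cells were harvested 48 hours after the later of them. Of these, the table holds the anti-*APC* library and the control without siRNA. The library of scrambled siRNA was not used here. All ratios are therefore anti-*APC* siRNA over untransfected, and an effect of *APC* silencing cannot be told apart from an effect of receiving siRNA.

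SREBPs are made as membrane proteins of the endoplasmic reticulum. When membrane sterols are low, SCAP carries them to the Golgi, where proteases release the part that enters the nucleus and binds sterol regulatory elements, often beside NF-Y and SP1 sites. When sterols are plentiful, INSIG proteins hold SCAP back. SREBP-2, encoded by *SREBF2*, mainly drives genes of cholesterol synthesis, and SREBP-1, encoded by *SREBF1*, mainly drives genes of fatty acid synthesis and desaturation.

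Each condition has a single library, so differences between conditions could not be checked against replicates and no p-value is given. Levels are FPKM, read density per length of transcript and size of library, which allow comparison between genes as well as between libraries. The yardstick for a ratio is its place among the 12063 genes with a mean of at least 1 FPKM and a value above 0 in both libraries. Their median log2 ratio was -0.05, and the middle 50 percent lay between -0.24 and 0.11. Among low genes, 339 share a log2 ratio of 0.13, the value of equal read numbers. Low genes at a ratio of 1 to 2 were taken to have 1 read in a library and 2 in the other. They give an estimated depth of 21900000 reads in the untransfected library (quartiles 12200000 and 25700000) and of 20000000 in the anti-*APC* library. Genes with more reads at the same ratio were not excluded, so the depth is approximate. Standard errors and 95 percent intervals below come from these depths. They cover counting error only and leave out the variation between cultures.

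*APC* (chromosome 5 of GRCh37, 112043215 to 112181936) had 3.43 FPKM in the anti-*APC* library and 9.15 FPKM in the control, so the targeted transcript stood at 37.5% of the untransfected level. *AXIN2*, a feedback target of WNT signaling, had 28.7 and 4.11 FPKM. Of 7 epithelial markers, 6 were at or above 1 FPKM, *VIL1* being the exception, and their summed level was 1313 FPKM with and 1687 FPKM without anti-*APC* siRNA. Of 10 markers of other cell types, *COL1A1* alone reached 1 FPKM, *ALB* was listed at 0 in both libraries, and the summed level was 3.43 with and 3.19 FPKM without. The epithelial markers were thus also lower in the anti-*APC* library, at 77.85% of their untransfected sum and with *CLDN4* (log2 ratio -0.78) and *CDH1* (-0.65) lowest, and their part in the results below was not tested.

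Promoter windows of the members were searched for short sequences that SREBPs and their partners are known to recognise. RefSeq windows of the 250 bases before a transcription start, on GRCh38.p14, were matched to 30 of the 34 members, the others being *ACAT2*, *FDFT1*, *SQLE* and *FASN*. Motifs were searched on both strands: CCAAT for NF-Y, GGGCGG for SP1-type factors, CACGTG for E-box factors and TCACNCCAC for a sterol regulatory element. CCAAT occurred in at least 1 window of 20 of the 30 members (66.7%), against 42.0% of the expressed genes with a window and 32.01% of all 35116 windows. GGGCGG occurred in 28 members (93.3%), against 76.7% of expressed genes and 46.2% of all genes with a window. CACGTG was found in *SC5D*, *SCAP* and *INSIG1* (10.0%, against 11.6% of expressed genes and 7.73% of all genes with a window). TCACNCCAC was found in *SREBF2* alone (3.33%, against 1.30% of expressed genes and 1.09% of all genes with a window). Sterol regulatory elements of another sequence, or outside the windows, were not searched for, so their absence cannot be read from this. Members were not matched to other genes in base composition, so these shares are descriptions.

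The windows below belong to 4 of the 5 members with the largest relative differences and to *SREBF2*, which differed little. The window listed first for *FADS2*, the other member past the limit, had none of these motifs. *INSIG1* lies at chr7:155297628-155297877 (plus strand), *TM7SF2* at chr11:65111622-65111871 (plus strand), *ELOVL6* at chr4:110198616-110198865 (minus strand), *MVD* at chr16:88663092-88663341 (minus strand) and *SREBF2* at chr22:41832855-41833104 (plus strand). Each is written 5′ to 3′ on the gene's strand and ends at the base before the start, with matches to the 4 motifs or their reverse complements in capitals.
INSIG1: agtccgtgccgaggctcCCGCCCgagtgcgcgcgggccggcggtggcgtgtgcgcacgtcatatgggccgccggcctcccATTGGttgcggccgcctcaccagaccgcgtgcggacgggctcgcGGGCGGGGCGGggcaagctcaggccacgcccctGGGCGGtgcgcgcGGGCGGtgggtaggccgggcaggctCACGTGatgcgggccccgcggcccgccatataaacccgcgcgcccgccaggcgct
TM7SF2: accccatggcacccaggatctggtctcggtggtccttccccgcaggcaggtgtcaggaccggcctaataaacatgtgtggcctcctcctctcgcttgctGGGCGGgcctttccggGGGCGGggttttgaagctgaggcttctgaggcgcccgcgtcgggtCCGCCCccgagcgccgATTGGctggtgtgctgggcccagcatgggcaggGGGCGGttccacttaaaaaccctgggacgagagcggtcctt
ELOVL6: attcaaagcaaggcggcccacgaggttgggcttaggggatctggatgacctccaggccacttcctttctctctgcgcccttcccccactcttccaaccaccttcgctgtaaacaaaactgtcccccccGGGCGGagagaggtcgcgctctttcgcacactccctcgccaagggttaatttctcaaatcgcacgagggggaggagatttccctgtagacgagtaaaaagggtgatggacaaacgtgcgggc
MVD: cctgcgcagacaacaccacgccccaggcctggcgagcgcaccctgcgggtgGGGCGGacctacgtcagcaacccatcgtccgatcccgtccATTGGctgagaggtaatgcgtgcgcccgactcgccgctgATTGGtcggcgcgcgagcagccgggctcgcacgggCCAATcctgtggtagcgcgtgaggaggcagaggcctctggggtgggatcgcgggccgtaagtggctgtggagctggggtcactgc
SREBF2: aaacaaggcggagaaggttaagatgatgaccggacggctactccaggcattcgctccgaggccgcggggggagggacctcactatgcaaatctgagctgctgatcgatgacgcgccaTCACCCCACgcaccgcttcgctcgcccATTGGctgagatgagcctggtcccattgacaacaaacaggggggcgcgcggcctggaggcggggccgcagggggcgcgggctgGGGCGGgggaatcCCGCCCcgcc
The *MVD* window has 3 CCAAT matches, the *INSIG1* window has 1 beside 5 matches to GGGCGG in either orientation, 2 of which overlap, and the *ELOVL6* window has GGGCGG only. The *SREBF2* window holds its TCACNCCAC match from base -133 to base -125, upstream of a CCAAT match in reverse orientation.

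**Figure D1:**
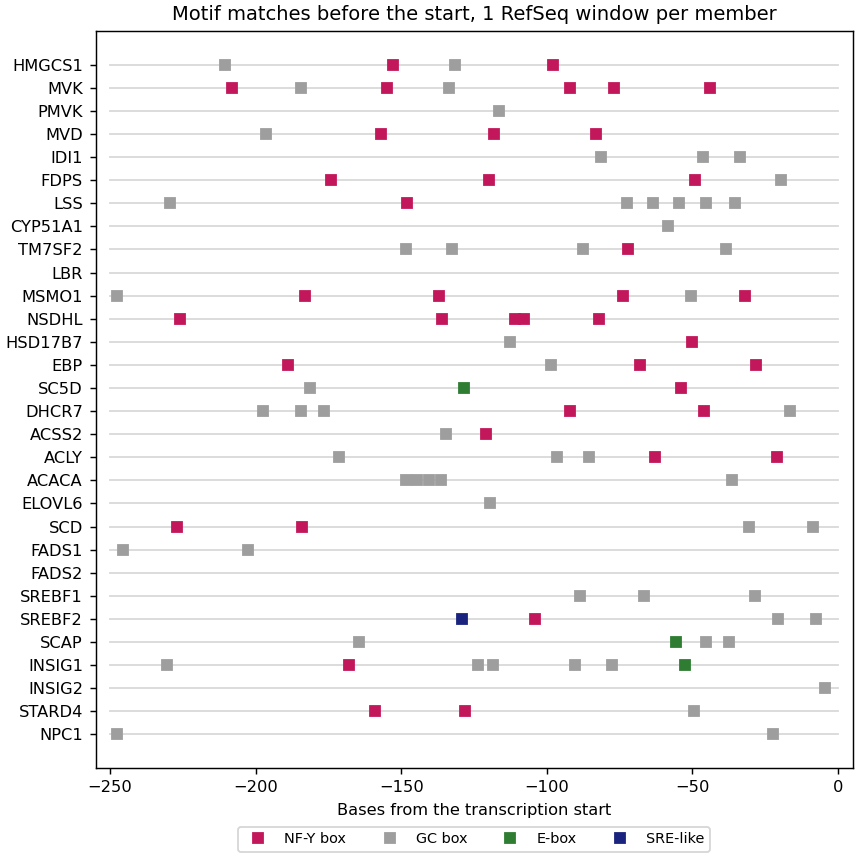
Matches to CCAAT (NF-Y box), GGGCGG (GC box), CACGTG (E-box) and TCACNCCAC (SRE-like) in the 250 bases before the start, for the window listed first of each of the 30 matched members, with distance from the start in bases on the x axis. Members in pathway order are the rows, *MVK* and *NSDHL* have the most NF-Y boxes (5 each), and the SRE-like match stands in the *SREBF2* row only.

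Of the 34 members, 33 passed the minimum of 1 FPKM. *STARD4*, which encodes a cytosolic sterol carrier, is listed at 0 in both libraries with the status FAIL, as are the other 2 genes that share its locus, so it has no measured level. Levels of the 33 members without siRNA ran from 3.14 FPKM (*TM7SF2*) to 278 FPKM (*SCD*). With anti-*APC* siRNA 31 of the 33 were lower and 2 were higher, while 58.6% of all genes were lower. A level at or below 80% of that in the control was seen in 14 members, against 18.4% of all genes, and a level at least 25% above it in none, against 7.17%. At least a 1.5-fold lower level was seen in 5 members (*TM7SF2*, *INSIG1*, *FADS2*, *ELOVL6* and *MVD*), which is 5 of 33 against 6.61% of all genes, and a 1.5-fold higher level in none, against 2.56%. No member was lower by 2-fold, as were 1.37% of all genes. Subtracting a trend on expression level changed the shares of all genes past 1.5-fold to 4.23% lower and 3.51% higher, and 5 members were then lower, with *SCD* in place of *FADS2*. The count was 3 when a trend on transcript GC content was subtracted (3.97% of all genes) and 3 with a minimum mean of 5 FPKM (3.77% of all genes). The median log2 ratio of the 33 members was -0.23, against -0.05 for all genes, and their summed level was 81.8% of the untransfected sum. The counting interval lay wholly below 0 in 28 members and wholly above 0 in 1, and the share of all genes with such intervals was not computed. Some of the 28 intervals include the median of all genes, such as those of *IDI1* (-0.15 to -0.0025) and *SREBF2* (-0.13 to -0.005). Of the 34 members, 9, *STARD4* included, lie at a locus where the table lists more genes. Among the 25 members alone at their locus 24 were lower, against 59.0% of all genes alone at their locus. In bulk RNA a lower level in every cell and the loss of some expressing cells cannot be told apart.

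**Figure D2:**
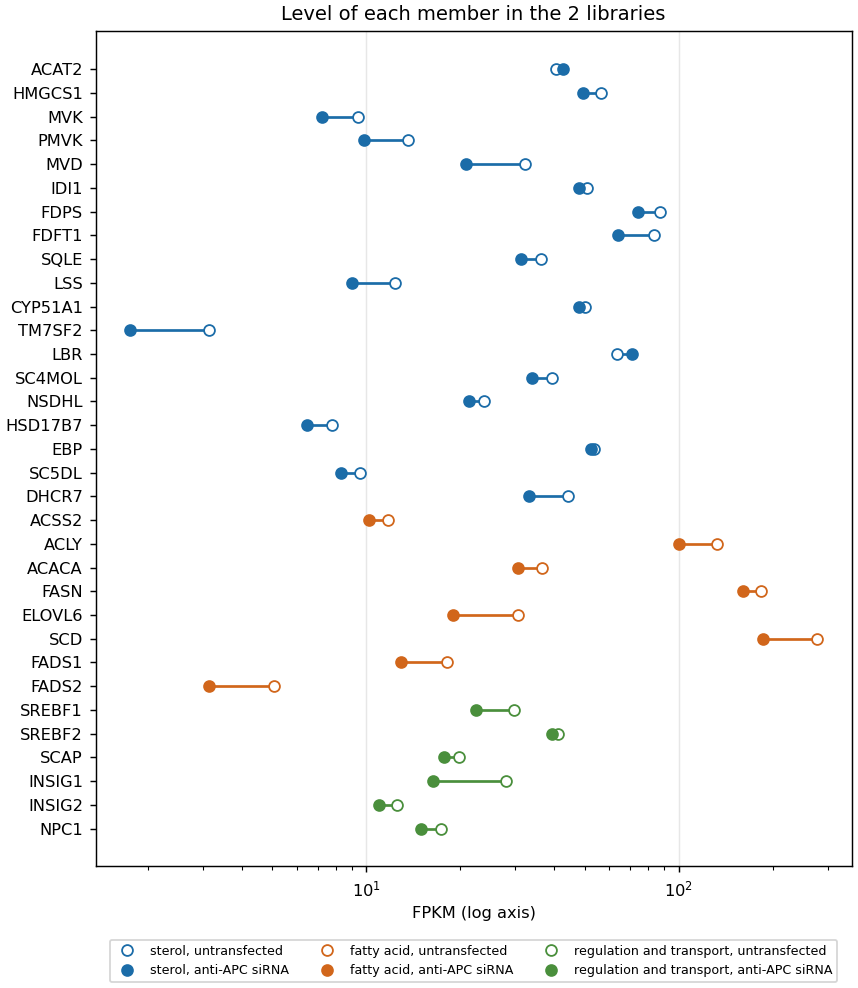
FPKM of the 33 measured members in the untransfected (open circles) and the anti-*APC* siRNA library (filled circles) on a log axis, 1 value per library, in pathway order and coloured by arm. The filled circle lies to the left of the open circle for 31 members, *ACAT2* and *LBR* being the exceptions, and the longest line is that of *TM7SF2* (3.14 to 1.75 FPKM).

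The sterol arm begins with the mevalonate and isoprenoid steps, where 6 of 7 members were lower (58.6% of all genes were lower) and the median log2 ratio was -0.23. *ACAT2*, the thiolase that joins acetyl-CoA units in the cytosol, had 42.7 FPKM in the anti-*APC* library and 40.4 FPKM in the control (log2 ratio 0.08; values below follow this order). It shares its locus with *TCP1*, an overlapping chaperonin gene on the opposite strand with 378 and 355 FPKM (0.09), and the use of strand in the read assignment is not stated. *HMGCS1*, which makes HMG-CoA, had 49.3 and 56.2 FPKM (-0.19, standard error 0.027). The kinases that phosphorylate mevalonate stood lower than this: *MVK* had 7.22 and 9.40 FPKM (-0.38, standard error 0.093), and *PMVK* had 9.84 and 13.5 FPKM (-0.46, standard error 0.13). *MVD*, the decarboxylase that yields isopentenyl pyrophosphate (chromosome 16 of GRCh37, 88718343 to 88729569), had 20.8 and 32.1 FPKM, a log2 ratio of -0.62 with a 95 percent counting interval of -0.75 to -0.49. Among all genes 5.78% had a ratio as low. It was short of 1.5-fold after median centring (-0.57) or when a trend on transcript length (-0.54) or on transcript GC content (-0.36) was subtracted. The steps that follow were closer to the untransfected level. *IDI1*, the isopentenyl pyrophosphate isomerase, had 48.1 and 50.7 FPKM (-0.08), and its locus also holds *IDI2* (2.59 and 2.98 FPKM) and *IDI2-AS1* (5.25 and 3.64 FPKM). *FDPS*, the farnesyl pyrophosphate synthase, had 74.0 and 87.0 FPKM (-0.23), the highest level of the arm. It shares a locus with *RUSC1*, which had a similar ratio (-0.22). *MVK*, *PMVK* and *MVD*, in the middle of this run, were below 80% of the untransfected level, and the enzymes at either end stayed above it. This order depended on transcript GC content: with its trend subtracted *MVK* was at -0.20, above *HMGCS1* at -0.24.

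From squalene to lanosterol all 3 members were lower, as were 58.6% of all genes. *FDFT1*, squalene synthase, had 63.8 FPKM with and 83.1 FPKM without anti-*APC* siRNA (log2 ratio -0.38, standard error 0.037). *SQLE*, squalene epoxidase, a rate-limiting step of sterol synthesis, had 31.2 and 36.3 FPKM (-0.22, standard error 0.045). *LSS*, which closes the ring system to give lanosterol, had 8.97 and 12.3 FPKM (-0.46, standard error 0.063). *FDFT1* and *LSS* were below 80% of the untransfected level and *SQLE* was not.

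Between lanosterol and cholesterol 8 of 9 members were lower (58.6% of all genes were lower), with a median log2 ratio of -0.20. The summed level of the 9 was 93.5% of the untransfected sum. *CYP51A1*, the lanosterol demethylase, had 47.9 and 50.1 FPKM (-0.06), a difference within its counting interval of -0.13 to 0.01. The next step, the reduction of the C14 double bond, can be done by either of a pair of enzymes. *TM7SF2* (chromosome 11, 64879317 to 64883856) had 1.75 FPKM with and 3.14 FPKM without anti-*APC* siRNA. Its log2 ratio of -0.84 was the lowest of all members, but it is also the least abundant member, with about 55 and 109 reads and an interval of -1.31 to -0.38. *LBR*, the lamin B receptor, had 70.7 and 63.4 FPKM, a log2 ratio of 0.16 (interval 0.10 to 0.21). The log2 ratios of the pair differed by -1.002 (counting interval -1.47 to -0.53), and since *LBR* was far more abundant their summed level was 72.4 FPKM with and 66.5 FPKM without. *LBR* also anchors chromatin at the nuclear envelope.

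The members of the later sterol steps ran from a log2 ratio of -0.42 (*DHCR7*) to -0.04 (*EBP*). The C4 demethylation enzymes *SC4MOL* (33.97 and 39.2 FPKM, log2 ratio -0.21), *NSDHL* (21.3 and 23.9 FPKM, -0.16) and *HSD17B7* (6.43 and 7.74 FPKM, -0.27) all stayed above 80% of the untransfected level. *HSD17B7* has a closely related pseudogene, so its reads may be divided between copies. *EBP*, the sterol isomerase, had 52.2 and 53.7 FPKM (-0.04, interval -0.15 to 0.07). *SC5DL*, the C5 desaturase, had 8.31 and 9.53 FPKM (-0.20). *DHCR7*, the reductase that completes cholesterol from 7-dehydrocholesterol, had 33.1 and 44.3 FPKM (-0.42, standard error 0.045). With the GC trend subtracted it was at -0.27, level with *SC5DL* (-0.26).

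**Figure D3:**
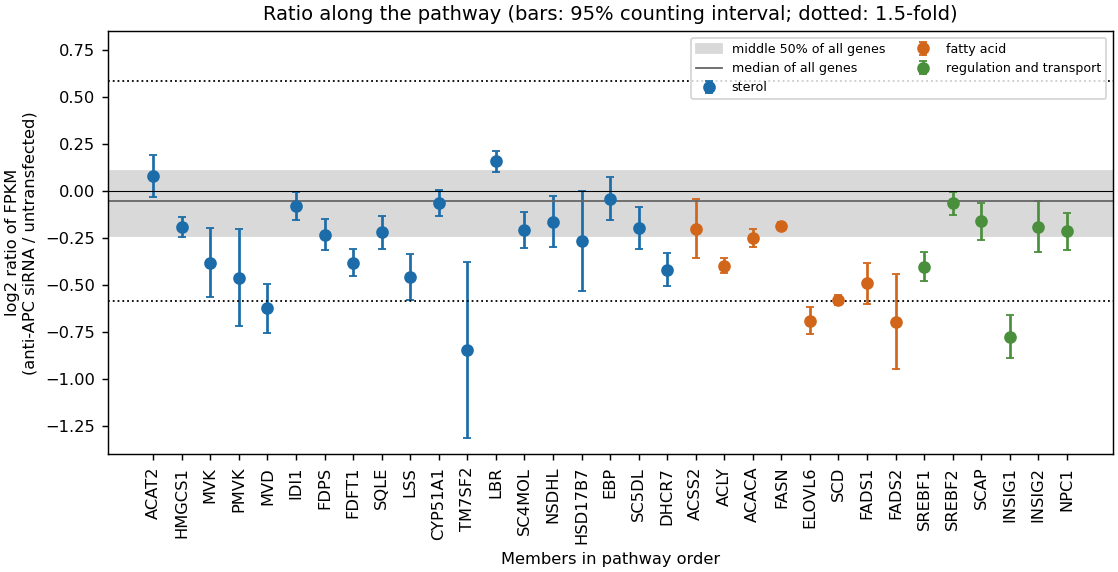
Log2 ratio of FPKM (anti-*APC* siRNA over untransfected, y axis) of the 33 measured members in pathway order, with bars for the 95 percent counting interval, dotted lines at 1.5-fold, a grey band for the middle 50 percent of all genes (-0.24 to 0.11) and a line at their median (-0.05). *LBR* and *ACAT2* lie above 0, and *TM7SF2*, *INSIG1*, *FADS2*, *ELOVL6* and *MVD* lie below the lower dotted line.

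In the fatty acid arm all 8 members were lower with anti-*APC* siRNA, as were 58.6% of all genes. *FASN* was slightly above 0 (0.07) when a trend on transcript GC content was subtracted. The median log2 ratio was -0.44, and the summed level was 523 FPKM with and 695 FPKM without, or 75.2%. The acetyl-CoA suppliers were *ACSS2*, which activates acetate (10.2 and 11.7 FPKM, -0.20), and *ACLY*, which cleaves citrate (100 and 132 FPKM, -0.40, standard error 0.020). *ACACA*, the carboxylase that commits acetyl-CoA to fatty acids, had 30.6 and 36.4 FPKM (-0.25). *FASN*, the fatty acid synthase (chromosome 17, 80036214 to 80056170), had 161 and 183 FPKM (-0.19, standard error 0.012). It has a GC content of 65.3%, against a median of 48.5% over expressed genes. *ACACA* and *FASN* stayed above 80% of the untransfected level, whereas the enzymes that modify the chain did not.

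*ELOVL6*, which extends palmitate to stearate (chromosome 4, 110967002 to 111120355), had 19.0 FPKM with and 30.6 FPKM without anti-*APC* siRNA. Its log2 ratio was -0.69 (interval -0.76 to -0.62), and 4.37% of all genes were as low. *SCD*, the desaturase that makes oleate and palmitoleate (chromosome 10, 102106990 to 102124583), was the most abundant member, with 186 and 278 FPKM. Its log2 ratio of -0.58 (interval -0.61 to -0.56) is a 1.496-fold difference, just short of the 1.5-fold limit, and its loss of FPKM was the largest among members. *FADS1* and *FADS2*, the Δ5 and Δ6 desaturases of polyunsaturated fatty acids, are neighbours on chromosome 11. *FADS1* had 12.9 and 18.2 FPKM (-0.49, standard error 0.055). *FADS2* (measured at the locus 61595713 to 61634825) had 3.14 and 5.07 FPKM (-0.69, standard error 0.13). It was short of 1.5-fold with a pseudocount of 1 (-0.55) or when a trend on expression level (-0.56) or on transcript GC content (-0.53) was subtracted. The ratios of *FADS2* and *FADS1* differed by -0.20, with a counting interval of -0.48 to 0.07 that includes 0. The 3 desaturases together stood at 67.0% of their untransfected sum, against 84.2% for *ACACA*, *FASN* and *ELOVL6* and 76.8% for *ACSS2* and *ACLY*.

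The fatty acid arm thus had the lower ratios, with a median 0.23 below that of the sterol arm (-0.44 against -0.22) and a summed level of 75.2% against 88.2%. *SCD* alone held 278 of the 694.8 FPKM of the untransfected fatty acid sum. The arms overlap: the fatty acid members ran from -0.69 to -0.19 and the sterol members from -0.84 to 0.16. A level at or below 80% was seen in 5 of 8 fatty acid members and in 7 of 19 sterol members, against 18.4% of all genes. Members of an arm are not replicates, so the difference of the medians has no test. It was smallest when a trend on transcript GC content was subtracted (0.14).

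**Figure D4:**
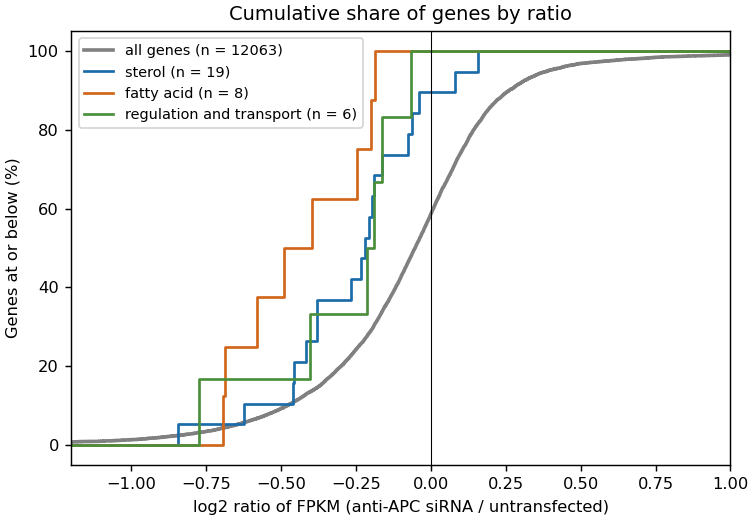
Cumulative percent of genes (y axis) at or below each log2 ratio of FPKM (anti-*APC* siRNA over untransfected, x axis) for all 12063 expressed genes and for the measured members of the sterol arm (19), the fatty acid arm (8) and the regulation and transport group (6). The fatty acid curve reaches 100 percent at -0.19, and the all-gene curve crosses 0 at 58.6 percent.

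Among the regulators, *INSIG1* stood apart. *INSIG1*, which retains SCAP in the endoplasmic reticulum and is itself a sensitive SREBP target (chromosome 7, 155089486 to 155101945), had 16.4 FPKM with and 28.0 FPKM without anti-*APC* siRNA. Its log2 ratio was -0.78 (interval -0.89 to -0.66), and 3.18% of all genes were as low. Its paralog *INSIG2* had 10.98 and 12.5 FPKM (-0.19, standard error 0.069). The ratios of the pair differed by -0.58 (counting interval -0.76 to -0.41), so the level of *INSIG1* was 2.24 times that of *INSIG2* without siRNA and 1.49 times with it. A like difference was seen between the genes for the SREBPs. *SREBF1* had 22.5 and 29.7 FPKM (-0.40, standard error 0.040), and *SREBF2* had 39.2 and 41.0 FPKM (-0.07, standard error 0.031), a difference of -0.34 (counting interval -0.44 to -0.24). The locus of *SREBF1* also holds *RAI1* (6.02 and 7.65 FPKM, -0.35). When the GC trend was subtracted *SREBF1* was at -0.18 and *SREBF2* at 0.09. *SCAP* had 17.7 and 19.8 FPKM (-0.16), and was at 0.04 after the same subtraction. *NPC1*, which exports cholesterol from lysosomes, had 14.97 and 17.4 FPKM (-0.21) at a locus it shares with *C18orf8* (22.2 and 20.2 FPKM). The microRNA genes within *SREBF1* and *SREBF2*, *MIR33B* and *MIR33A*, are listed at 0 in both libraries, as is *MIR1908* at the locus of *FADS1*. Whether these libraries capture microRNAs was not tested, so no level is read from these values.

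Other genes of lipid metabolism and promoter cofactors were followed in 5 further lists, 65 of whose 74 genes passed the minimum. Of these 65, 43 were lower and 22 higher, while 58.6% of all genes were lower. The median log2 ratio of the 65 was -0.09, between that of all genes (-0.05) and that of the members (-0.23), but it pools unlike lists. List medians ran from 0.03 (promoter cofactors) to -0.21 (other sterol and isoprenoid steps). The latter was near the median of the sterol arm (-0.22). At least a 1.5-fold lower level was seen in 5 of the 65, a share near the 6.61% of all genes, and a 1.5-fold higher level in none, against 2.56%. Among other sterol and isoprenoid steps 7 of 9 were lower (median -0.21). *NUS1*, a subunit of the enzyme that makes dolichol precursors, had 22.8 FPKM with and 39.7 FPKM without (-0.80), while its catalytic partner *DHDDS* had 20.9 and 16.7 FPKM (0.32).

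Of the 10 genes that process and turn over SREBPs and INSIGs, 7 were lower (58.6% of all genes), none at or below 80% of the untransfected level (18.4% of all genes), with a median log2 ratio of -0.06 and a range of -0.29 to 0.16. The site-1 protease gene *MBTPS1* had 42.3 and 45.5 FPKM (-0.10), and the site-2 protease gene *MBTPS2* had 12.9 and 13.5 FPKM (-0.06). Of the 7 promoter cofactors 3 were lower and 4 higher (median 0.03). *NFYA* had 16.9 and 13.6 FPKM (0.31) and *SP1* had 28.7 and 34.2 FPKM (-0.25).

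Of 26 other fatty acid and lipid synthesis genes 19 were lower and 7 higher (58.6% of all genes were lower), with a median of -0.13. The 4 past 1.5-fold were all lower. *MLXIPL* encodes ChREBP, the carbohydrate-responsive activator of lipogenic genes, and had 2.55 FPKM with and 5.73 FPKM without anti-*APC* siRNA (-1.17, standard error 0.13). *FADS3*, next to *FADS1* and *FADS2*, had 8.30 and 13.3 FPKM (-0.67). *MID1IP1*, whose product promotes acetyl-CoA carboxylase activity, had 17.1 and 26.2 FPKM (-0.61). *LPIN1*, a phosphatidate phosphatase, had 2.62 and 3.99 FPKM (-0.61). The other expressed elongases went both ways, with *ELOVL5* (56.0 and 51.7 FPKM, 0.12) and *ELOVL7* (0.13) higher and *ELOVL1* (-0.24) and *ELOVL3* (-0.13) lower. Among acyl-CoA synthetases, *ACSL5* (107 and 85.8 FPKM, 0.32) and *ACSL4* (0.34) were higher and *ACSL1* (-0.13) and *ACSL3* (-0.06) lower.

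**Figure D5:**
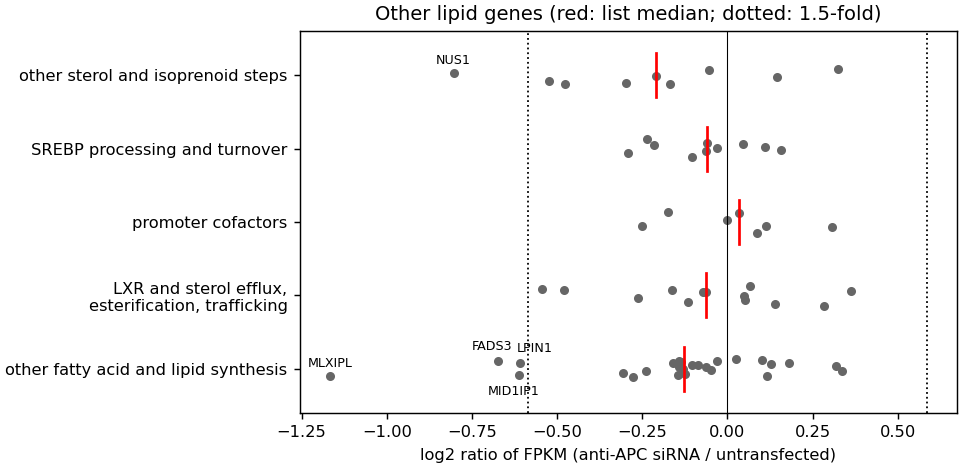
Log2 ratio of FPKM (anti-*APC* siRNA over untransfected, x axis) of the 65 expressed genes of the 5 further lists of lipid genes and promoter cofactors. There is 1 point per gene with vertical scatter for display, with red lines at list medians and dotted lines at 1.5-fold. The named points, *NUS1*, *MLXIPL*, *FADS3*, *MID1IP1* and *LPIN1*, lie below the lower limit and no point lies above the upper limit.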

How the data were processed

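RNA of HCT-116 cells was sequenced from single-read TruSeq libraries. According to the methods and labels, the authors quantified transcripts from these reads with Cufflinks on hg19, and Cuffdiff gave the values per library. The aligner, versions and annotation are not given in the sources used here. The values used are the FPKM the authors deposited for the anti-*APC* siRNA and the untransfected library. The file also holds the authors' log ratio, test statistic, *p*, *q* and call, which were not used.

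Log2 ratios were computed without a pseudocount for genes with a mean of at least 1 FPKM and values above 0 in both libraries, and 134 genes that met the mean but were at 0 in 1 library were left out. The fold limit was 1.5. The members and lists were chosen with earlier results of these data known. Genes named are the members, *APC*, *AXIN2*, their locus neighbours and list genes past the fold limit. Other list genes (*DHDDS*, *MBTPS1*, *MBTPS2*, *NFYA*, *SP1*, the elongases and acyl-CoA synthetases, and those of the closing section) and the markers were named after their values were seen. Depth was estimated from 228 genes alone at their locus, under 0.3 FPKM and within 0.01 of the log2 ratio of 1 against 2 reads, with canonical transcript lengths of GENCODE 44 on GRCh37, whose genes overlap the table's locus for all 34 members. Lengths were known for 84.1% of expressed genes. The depth is approximate because the authors' isoforms may differ and because higher counts at the same ratio were not excluded. The ratio, the fold call and the removal of an expression trend were tested on simulated data. Alternatives were median centring, lowess trends (fraction 0.3) on expression, GC or length, pseudocounts, other minimums and folds, and genes alone at their locus. Python 3.11.15, numpy 2.4.6, pandas 2.3.3, statsmodels 0.14.6 and matplotlib 3.10.9 were used.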

Additional observations from a re-analysis of the deposited data

How the results depend on the processing

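The medians of both arms stayed below 0 under every alternative run. The sterol arm median ranged from -0.24 to -0.16. The fatty acid median ranged from -0.49 to -0.38, and with a trend on transcript GC content subtracted it was -0.38, farther from the main -0.44 than the median counting interval of its members. The difference between the arms ranged from 0.14 to 0.25. No member was 1.5-fold higher under any alternative. The count of members lower by the fold limit was 5 in the main analysis, where 6.61% of all genes were lower by as much. It was 3 with a minimum mean of 5 FPKM (3.77% of all genes) and 3 with the GC trend subtracted (3.97% of all genes). At a limit of 80% of the untransfected level it was 14 (18.4% of all genes), and at 2-fold 0 (1.37% of all genes). *INSIG1* and *ELOVL6* were past the limit in each run at 1.5-fold, while *MVD* was at -0.36 after the GC trend was subtracted. Of 33 members, 30 remained below 0 after median centring and 27 after the GC trend, when *EBP*, *FASN*, *SREBF2* and *SCAP* were above 0, and *CYP51A1* and *EBP* were above 0 after a trend on transcript length. Of all genes 50.0% were below 0 after median centring, 48.6% after the GC trend and 49.1% after the length trend. The GC and length trends were chosen after the data were seen. Analyses with the scrambled siRNA library were not made. No paired analysis was possible because each condition has 1 library. The median 95 percent counting interval reached 0.11 to either side of a log2 ratio in the sterol arm and 0.059 in the fatty acid arm, and variation between cultures was not measured.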

Other observations

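Of 18 genes of sterol sensing by LXR, efflux, esterification and trafficking, 13 passed the minimum, 7 of them lower and 6 higher with anti-*APC* siRNA (58.6% of all genes were lower), with a median log2 ratio of -0.06. None was 1.5-fold lower or higher, against 6.61% and 2.56% of all genes. *NPC2*, which hands lysosomal cholesterol to NPC1, had 108 FPKM with and 84.3 FPKM without (0.36), in the opposite direction to *NPC1*. *SOAT1*, which esterifies cholesterol for storage, had 23.1 and 20.9 FPKM (0.14). *MYLIP*, an LXR target whose product degrades lipoprotein receptors, had 3.59 and 2.95 FPKM (0.28). *NR1H3*, which encodes LXRα, had 7.20 and 10.5 FPKM (-0.54), and *NR1H2*, which encodes LXRβ, had 11.9 and 11.5 FPKM (0.05). The lipoprotein receptor *LRP8* had 9.47 and 13.2 FPKM (-0.48). The efflux transporters *ABCA1* (0.112 and 0.0527 FPKM) and *ABCG1* (0.169 and 0.220 FPKM) were below the minimum in both libraries, so no direction is given for them.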
